A study of Homo sapiens with 8 samples.

Results

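The WNT ligands, their receptors, their secreted inhibitors and the central intracellular parts of the pathway were followed in U87 cells, an established human glioblastoma line. The members are the protein-coding genes whose symbols begin with WNT or FZD and a digit, SFRP1 to SFRP5, DKK1 to DKK4, and LRP5, LRP6, AXIN1, AXIN2, CTNNB1, LEF1, TCF7, TCF7L2, RNF43 and ZNRF3. This rule found 47 genes among the 58884 gene identifiers of the deposited count table: 19 ligands, 12 receptors, 8 secreted inhibitors, 2 ubiquitin ligases, 2 destruction complex genes and 4 effectors. No measured value entered the rule. RNA sequencing was done on 8 libraries in 4 groups of 2. The groups were DMSO, long-term AsiDNA, belinostat, and long-term AsiDNA with belinostat (the combination). AsiDNA is a short double-stranded DNA that mimics a DNA break and disturbs repair, and belinostat is a hydroxamate inhibitor of histone deacetylases, here used at 1 µM for 24 h. Neither a dose nor a duration of AsiDNA is given in the sources used here. The labels name the cultures MTU87 and LTAU87 without saying which library came from which, and they do not say whether the replicates were separate cultures, so p-values measure only the spread between these libraries. All of the cells belong to 1 cell line.

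WNT proteins are secreted, lipid-modified signals that bind Frizzled (FZD) receptors. With the co-receptors LRP5 and LRP6, a canonical WNT inactivates the destruction complex built on AXIN, so that β-catenin (CTNNB1) accumulates and switches on genes together with the DNA-binding proteins LEF1, TCF7 and TCF7L2. Other ligands, WNT5A foremost, act mostly without β-catenin, through pathways that control cell shape and migration, and WNT5A is best known in glioblastoma for its link with invasion. SFRP proteins trap WNTs outside the cell, DKK1 blocks LRP5 and LRP6, and the ubiquitin ligases RNF43 and ZNRF3 remove FZD receptors from the cell surface. AXIN2, LEF1, ZNRF3 and RNF43 are textbook β-catenin target genes as well as pathway components.

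Library sizes lay between 6057394 and 9699637 counts, at which 3 counts equal 0.292 to 0.506 CPM, counts scaled to a common library size. The mesenchymal genes VIM (1367 to 5963 CPM) and CD44 (1417 to 2518 CPM), and EGFR (256 to 317 CPM), were abundant in every library. The glial markers GFAP (0 to 0.486 CPM) and S100B (0 to 0.256 CPM) were at or near 0, and SOX2 was at 0 CPM. The labelled brain origin was not visible in these 3 genes. OLIG2 lay at 0.506 to 1.57 CPM. The neural stem marker NES was found in every library, at 4.94 to 7.35 CPM without belinostat and 26.2 to 56.45 CPM with it. The collagens COL1A1 (117 to 260 CPM) and COL1A2 (980 to 1473 CPM) were also abundant, whereas the blood cell marker PTPRC lay at 0 to 0.121 CPM. Of the endothelial markers CDH5 was at 0 and PECAM1 at 3.74 to 20.6 CPM, and of the neuronal markers RBFOX3 lay at 0 to 0.0972 CPM and SNAP25 at 34.6 to 130 CPM. The share of counts on genes annotated as sense-intronic, transcripts that lie inside introns, was 0.128% and 0.142% in belinostat and 0.113% in DMSO replicate 2, and 0.044% to 0.057% in the other 5 libraries. The nuclear RNAs MALAT1 and NEAT1 together held 12.2% and 13.4% of counts in belinostat and 0.688% to 3.12% elsewhere. For the sense-intronic share a fit with that share as a covariate was made, and its counts of called members stand beside those of each comparison it changed; the part of MALAT1 and NEAT1 was not tested.

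Of the 47 members, 24 had enough reads to be tested: 5 ligands, 9 receptors, 3 secreted inhibitors, 1 ubiquitin ligase, both destruction complex genes and the 4 effectors. No count was found in any library for WNT1, WNT2, WNT8A, WNT10A, FZD9, FZD10, DKK2 and SFRP5. Between 1 and 7 counts over all 8 libraries were found for WNT3A, WNT4, WNT6, WNT7A, WNT8B, WNT9A, WNT9B, WNT11, WNT16, LRP5, DKK4 and SFRP1. LRP5, the partner co-receptor of LRP6, had 5 counts in all. RNF43 and SFRP4 had 25 counts each, spread over all 4 groups. RNF43 shares 57.6% of its exon bases with AC004687.2 on the same strand, so its counts may be split. It also shares 20.3% with TSPOAP1-AS1 on the opposite strand.

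WNT3, a canonical ligand, missed the filter on low counts and yet split by treatment. It had 10, 10, 12 and 8 counts in the DMSO and AsiDNA libraries, and 1, 0, 0 and 1 counts in the belinostat and combination libraries. The 4 libraries without belinostat all lay above the 4 with it. By counts alone, the depth-scaled ratio of belinostat to DMSO was 0.0698 (exact 95% interval 0.00168 to 0.436), and that of the combination to AsiDNA was 0.0549 (0.00132 to 0.343). These intervals cover counting error only. When no filter was applied, edgeR's quasi-likelihood test gave WNT3 log2 fold changes of -3.72 ± 1.12 (SE; adjusted p = 0.00402) and -3.97 ± 1.11 (SE; adjusted p = 0.00252) in these comparisons.

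WNT5A was by far the most expressed ligand. Per kilobase of exon, the mean level in DMSO was 129 CPM for WNT5A, 6.86 CPM for WNT7B, 1.42 CPM for WNT5B, 0.27 CPM for WNT2B and 0.113 CPM for WNT10B. WNT5A held between 92.7% and 97.6% of all WNT ligand counts in each library, lowest in the belinostat libraries (92.7% and 93.8%). Among receptors, FZD6 stood first in DMSO at 9.88 CPM per kilobase, followed by the co-receptor LRP6 at 6.96, FZD7 at 3.28 and FZD1 at 3.26, the last pair within the spread of their replicates. FZD5 (1.52), FZD2 (1.08), FZD8 (0.97), FZD3 (0.439) and FZD4 (0.29) followed on the same scale. SFRP2 was the leading secreted inhibitor at 14 CPM per kilobase, above DKK1 (1.12) and DKK3 (0.556). CTNNB1 reached 32.0 CPM per kilobase, whereas its DNA-binding partners LEF1 (2.56), TCF7 (2.53) and TCF7L2 (1.07) lay lower.

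**Figure D1:**
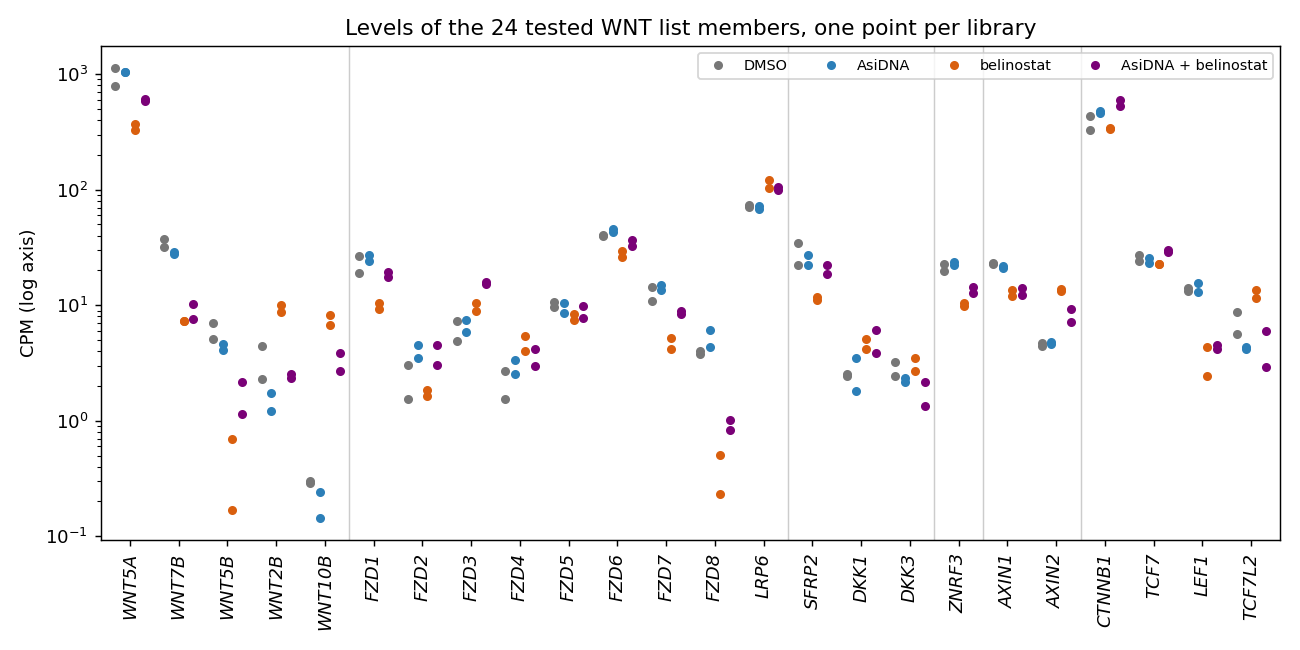
Levels of the 24 tested members in each library, as CPM on a log scale, grouped by role; each point is 1 library and colours mark the 4 groups. WNT5A and CTNNB1 stand above every other member, and WNT10B separates the libraries with belinostat from those without.

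RefSeq promoter entries were found for 32 of the 47 members, 14 of them tested. Each window holds the 250 bases before the annotated start on GRCh38.p14. The 4 motifs searched on both strands were the TCF/LEF core CTTTGA, the E-box CACGTG, the GC box GGGCGG and the CCAAT box CCAAT. Windows are shown for FZD8 and AXIN1, which fell with belinostat, for WNT5A, which also fell, and for TCF7L2, which rose; capitals mark motif matches. FZD8 (chr10:35642297-35642546, minus strand) holds 3 GC boxes and 1 CCAAT box, AXIN1 (chr16:352724-352973, minus strand) holds 8 GC boxes, and TCF7L2 (chr10:112949997-112950246, plus strand) holds 5 GC boxes. For these 3 genes the window before the outermost start is shown. The WNT5A window shown lies before its inner start (chr3:55481399-55481648, minus strand) and holds none of the 4 motifs, whereas the window before its outermost start, which overlaps annotated exons and is not printed, holds 1 GC box.
FZD8: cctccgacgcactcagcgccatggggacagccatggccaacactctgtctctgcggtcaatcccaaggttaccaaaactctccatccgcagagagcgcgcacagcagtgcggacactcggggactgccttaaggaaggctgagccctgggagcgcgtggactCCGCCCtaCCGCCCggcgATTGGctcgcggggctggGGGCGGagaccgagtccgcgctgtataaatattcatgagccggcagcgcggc
AXIN1: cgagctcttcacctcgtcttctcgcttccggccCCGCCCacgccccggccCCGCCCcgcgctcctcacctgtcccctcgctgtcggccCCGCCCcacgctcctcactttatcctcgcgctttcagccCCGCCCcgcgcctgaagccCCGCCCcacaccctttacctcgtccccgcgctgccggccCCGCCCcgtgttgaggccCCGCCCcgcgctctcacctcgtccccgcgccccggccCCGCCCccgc
WNT5A: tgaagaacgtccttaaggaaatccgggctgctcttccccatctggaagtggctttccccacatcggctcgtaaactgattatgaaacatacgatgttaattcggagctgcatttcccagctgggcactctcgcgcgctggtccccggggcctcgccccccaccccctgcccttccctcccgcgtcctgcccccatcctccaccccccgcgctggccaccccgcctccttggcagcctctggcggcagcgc
TCF7L2: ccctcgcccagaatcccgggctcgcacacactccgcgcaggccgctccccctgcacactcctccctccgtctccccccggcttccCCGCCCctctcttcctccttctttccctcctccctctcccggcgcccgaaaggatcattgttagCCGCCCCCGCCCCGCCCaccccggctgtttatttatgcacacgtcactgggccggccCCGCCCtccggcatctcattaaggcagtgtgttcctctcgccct

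Counting the outermost window of each gene, a GC box was present in 6 of 7 tested members that fell with belinostat, 2 of 3 that rose and 4 of 4 that were not called. It was also present in 15 of 18 members that were not tested, beside 42.6% of all 35116 promoter windows of the same length. Unlike the member windows, these include every entry of a gene, inner starts too. A CCAAT box was present in 3 of 7, 1 of 3 and 1 of 4 tested members and in 7 of 18 not tested, beside 32.0% of all windows. Among the 14 windows of tested members, the TCF/LEF core was found in 1, that of DKK1. It lay at 149 to 144 and 95 to 90 bases before the start, beside 11.2% of all windows with this core. No window of the 14 held the E-box, which 6.3% of all windows hold. A match is a description of the letters and not a measured binding site.

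Belinostat against DMSO asks what the deacetylase inhibitor did to cells without AsiDNA. The ligands WNT5A, WNT5B and WNT7B, the receptors FZD1, FZD6, FZD7 and FZD8, the inhibitor SFRP2, the ligase ZNRF3, AXIN1 and LEF1 fell, and WNT10B, WNT2B, FZD3, FZD4, LRP6, AXIN2 and TCF7L2 rose. By edgeR's quasi-likelihood test with Benjamini-Hochberg adjustment over all 14741 tested genes, called at an adjusted p under 0.05, 18 of 24 tested members changed, 7 higher and 11 lower. Over all tested genes 57.4% were called, 29.8% higher and 27.6% lower, so the background of change in this comparison is high. The members' median log2 fold change was -0.38, beside 0.06 for all tested genes. With the sense-intronic share as a covariate, 17 members were called, beside 52.4% of all tested genes. WNT10B passed the filter only through the libraries with belinostat, and FZD8 and WNT5B only through those without it, so each had to differ. Markers of other cells moved with belinostat too. The summed level of 3 neuronal markers was 35 to 55 CPM in the 4 libraries without belinostat and 86.3 to 130 CPM in the 4 with it, most of it SNAP25, with RBFOX3 at 0 in every library with belinostat. The sum of 3 endothelial markers was 3.74 to 6.1 CPM without and 13.5 to 23.5 CPM with belinostat, most of it PECAM1, with CDH5 at 0 throughout. That of 5 fibroblast markers, most of it COL1A2, was 1505 to 1790 CPM without and 1231 to 1355 CPM with belinostat. These markers split: DCN and COL1A2 lay lower and PDGFRA higher in all libraries with belinostat, and COL1A1 and LUM overlapped. The immune (1.55 to 3.71 CPM) and epithelial (0.907 to 2.68 CPM) sums were low in every library. In bulk RNA, fewer cells that express a gene and less of its RNA per cell cannot be told apart.

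The combination against AsiDNA asks the same of cells held in AsiDNA. Here 12 of 24 tested members changed, 4 higher and 8 lower, beside 42.9% of all tested genes (21.7% higher and 21.2% lower), with a median log2 fold change of -0.2 beside 0.02. DESeq2 called 10 members, beside 36.9% of all tested genes, and not AXIN2 (adjusted p = 0.0738) or FZD7 (0.059). The fit with the sense-intronic covariate called 17, beside 56.2% of all tested genes. WNT5A, WNT5B, WNT7B, FZD7, FZD8, ZNRF3, AXIN1 and LEF1 were lower and WNT10B, FZD3, LRP6 and AXIN2 higher. These 12 members had the same call in belinostat against DMSO, and 6 members were called in neither. The comparisons share no library, but a single fit gave both, with the same filter and a shared estimate of the spread. WNT10B and FZD8 are among the 12 and had to differ by the filter. WNT5B, also among the 12, passed the filter only through the libraries without belinostat, which favours a difference. The 12 are 50% of the tested members, beside 34.4% of all tested genes with the same call in both. They make up 66.7% of the members called in belinostat against DMSO and 100% of those called in the combination against AsiDNA, beside 59.9% and 80.3% for all tested genes. The other 6 members called in cells without AsiDNA were FZD1, FZD4, FZD6, SFRP2, TCF7L2 and WNT2B. In cells with AsiDNA their log2 fold changes ran from -0.47 for FZD1 (adjusted p = 0.0629, edgeR) to 0.75 for WNT2B (adjusted p = 0.209, edgeR).

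**Figure D2:**
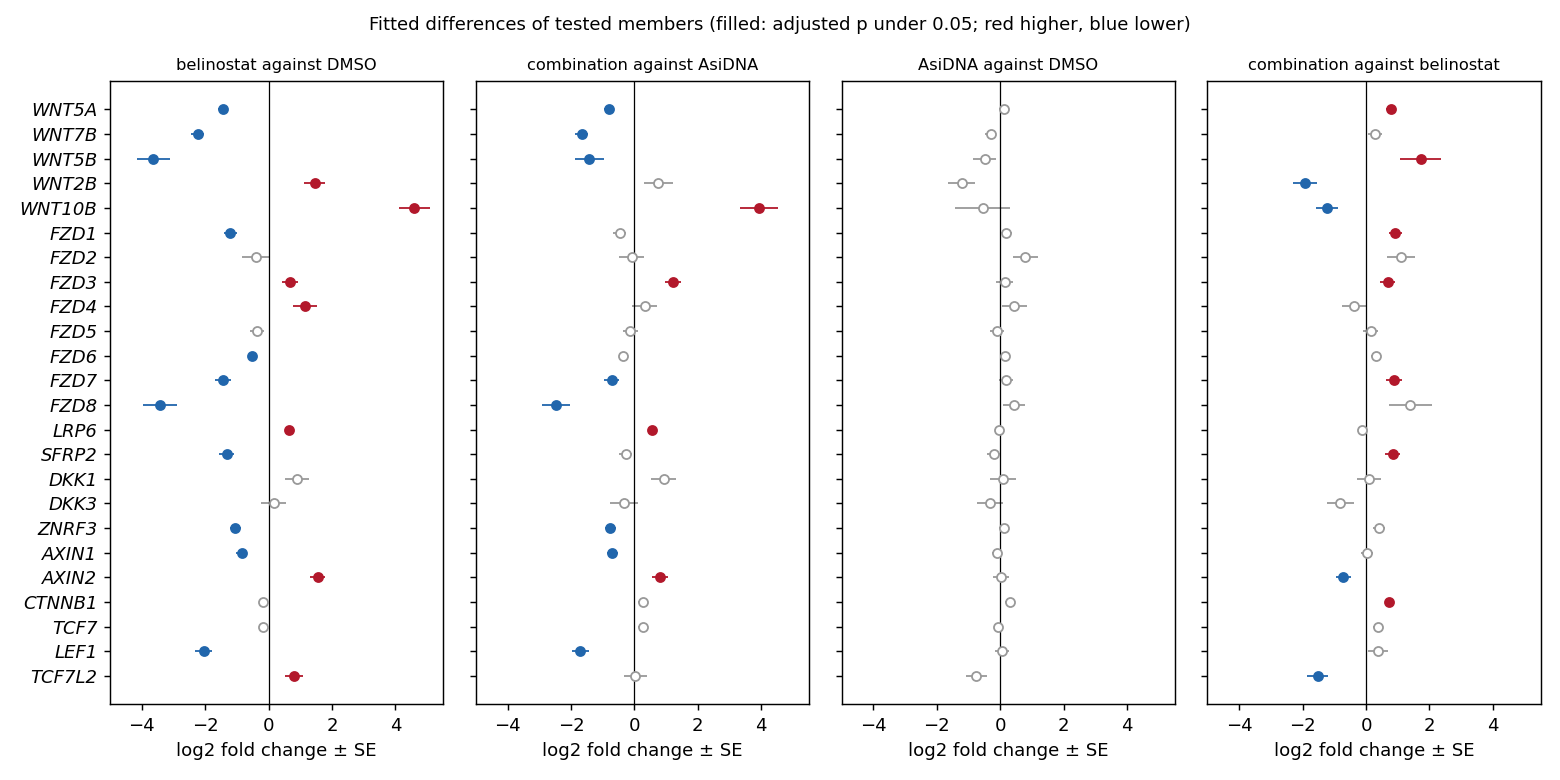
Log2 fold changes of the 24 tested members in 4 comparisons, from left to right belinostat against DMSO, the combination against AsiDNA, AsiDNA against DMSO and the combination against belinostat; bars are standard errors, and filled points are called at an adjusted p under 0.05 (red higher, blue lower). WNT10B lies farthest to the right in the first pair of panels at 4.60 and 3.93, FZD8, WNT5B, WNT7B and LEF1 lie to the left of 0 there, and no point is filled for AsiDNA against DMSO.

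Among the ligands, WNT5A (ENSG00000114251, chromosome 3, 55465715 to 55490539, minus strand, GRCh38) measured 1122 and 783 CPM in DMSO, 1040 and 1049 in AsiDNA, 330 and 372 with belinostat alone and 590 and 615 in the combination. All 4 libraries without belinostat lay above the combination, which lay above belinostat alone. The log2 fold change was -1.44 ± 0.16 (SE; adjusted p = 6.01e-06, edgeR) for belinostat against DMSO and -0.79 ± 0.16 (SE; adjusted p = 0.00111, edgeR) for the combination against AsiDNA. WNT7B (chromosome 22, 45920362 to 45977129, minus strand), a canonical ligand of the developing brain and its vessels, measured 37.1 and 32.2 CPM in DMSO, 27.6 and 28.6 in AsiDNA, 7.37 and 7.26 with belinostat alone and 10.3 and 7.54 in the combination. The groups with and without belinostat did not overlap. It fell by 2.24 ± 0.19 (SE; adjusted p = 6.73e-07, edgeR) on the log2 scale with belinostat and by 1.67 ± 0.19 (SE; adjusted p = 1.44e-05, edgeR) in AsiDNA cells.

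WNT5B (chromosome 12, 1529891 to 1647243, plus strand), the close relative of WNT5A, measured 7.06 and 5.15 CPM in DMSO, 4.58 and 4.07 in AsiDNA, 0.702 and 0.169 with belinostat alone and 2.17 and 1.15 in the combination. It was lowest in belinostat, where both libraries together held 7 counts against 123 in DMSO. The depth-scaled ratio of DMSO to belinostat was 12.6 (exact 95% interval 5.93 to 32, counting error only). WNT5B passed the filter only through the libraries without belinostat and so had to differ between belinostat and DMSO. In the combination, whose libraries held 13 and 9 counts, the filter favoured a difference without fixing it. Its fitted log2 fold change was -3.63 ± 0.52 (SE) with belinostat and -1.42 ± 0.45 (SE) in AsiDNA cells. The call in AsiDNA cells was lost without AsiDNA replicate 1, AsiDNA replicate 2 or combination replicate 2.

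WNT10B (chromosome 12, 48965340 to 48971763, minus strand), a canonical ligand known from bone and fat cell biology, moved the other way. It measured 0.302 and 0.292 CPM in DMSO, 0.241 and 0.145 in AsiDNA, 8.30 and 6.75 with belinostat alone and 3.83 and 2.68 in the combination. The libraries without belinostat were at or below the level of 3 counts, and those with belinostat lay well above it. The 111 counts in belinostat against 6 in DMSO gave a ratio of 25.8 (exact 95% interval 11.5 to 71.9), and the 44 counts in the combination against 3 in AsiDNA gave 16.1 (5.16 to 81.1). WNT10B passed the filter only through the libraries with belinostat and so had to differ in both comparisons. Its fitted log2 fold changes were 4.60 ± 0.47 (SE) and 3.93 ± 0.60 (SE).

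WNT2B (chromosome 1, 112466541 to 112530165, plus strand), a ligand of the canonical kind, measured 2.32 and 4.47 CPM in DMSO, 1.21 and 1.74 in AsiDNA, 8.65 and 10.1 with belinostat alone and 2.33 and 2.56 in the combination. Only the belinostat libraries lay above all others. The log2 fold change with belinostat was 1.46 ± 0.34 (SE; adjusted p = 0.0023, edgeR), and in AsiDNA cells it was 0.75 ± 0.46 (SE; adjusted p = 0.209, edgeR). WNT2B shares 21.2% of its exon bases with ST7L on the opposite strand, and because the strand setting of the counting is not given, reads of the pair cannot be told apart. With the sense-intronic share as a covariate, its value with belinostat was 0.89 (adjusted p = 0.0464).

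**Figure D3:**
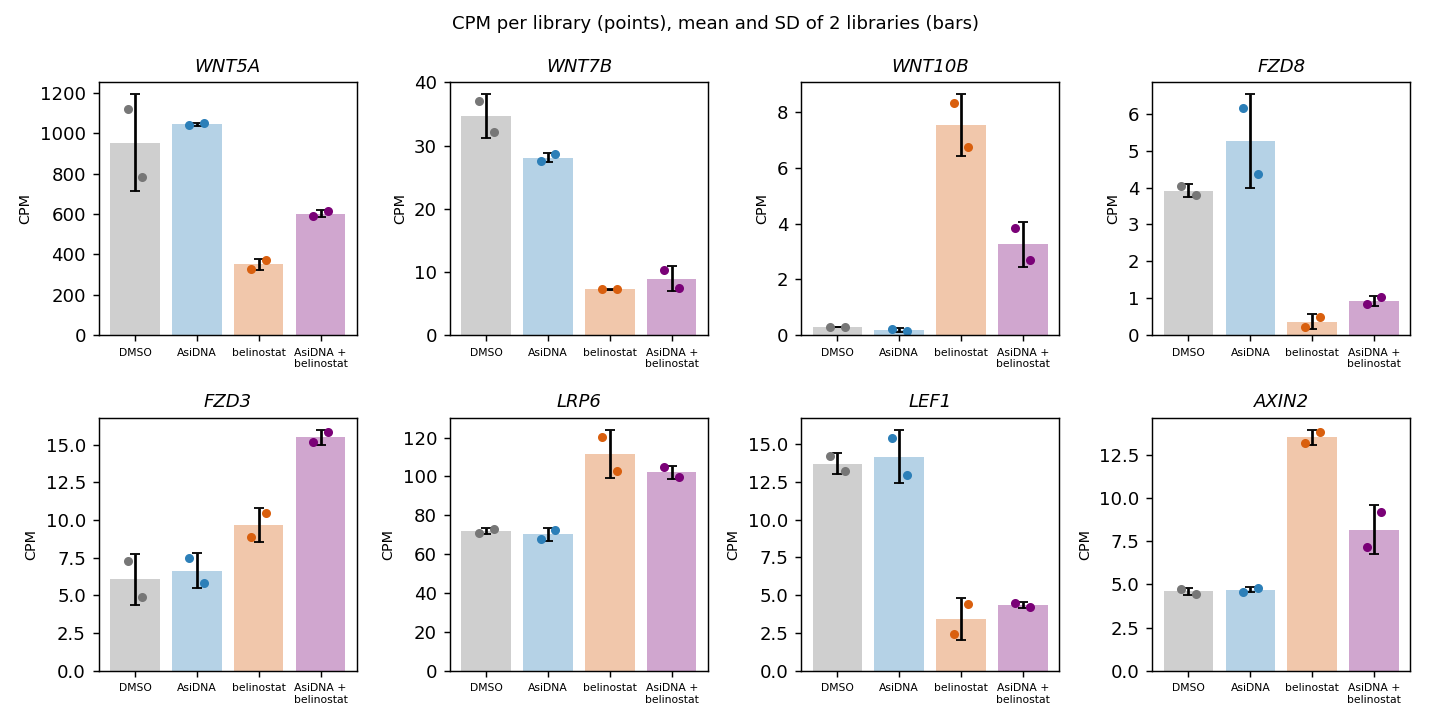
CPM in each of the 8 libraries for WNT5A, WNT7B, WNT10B, FZD8, FZD3, LRP6, LEF1 and AXIN2; points are libraries, bars are means of 2 libraries and error bars their SD. WNT7B, FZD8 and LEF1 are lower, and WNT10B, FZD3, LRP6 and AXIN2 higher, in the 4 libraries with belinostat than in the 4 without.

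The receptors split. FZD8 (chromosome 10, 35638249 to 35642278, minus strand), whose promoter window is given above, measured 4.03 and 3.79 CPM in DMSO, 6.15 and 4.36 in AsiDNA, 0.234 and 0.506 with belinostat alone and 0.833 and 1.02 in the combination. The libraries with belinostat all lay below those without. In DMSO 79 counts stood against 5 in belinostat, a ratio of 11.3 (exact 95% interval 4.65 to 35.8). FZD8 passed the filter only through the libraries without belinostat and so had to differ in both comparisons. Its fitted log2 fold changes were -3.431 ± 0.529 (SE) with belinostat and -2.475 ± 0.439 (SE) in AsiDNA cells.

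FZD7, a receptor used by canonical WNTs in many stem cells, measured 14.5 and 10.8 CPM in DMSO, 13.5 and 15.1 in AsiDNA, 4.21 and 5.23 with belinostat alone and 8.33 and 8.95 in the combination. Its close relative FZD1 measured 26.5 and 18.9 CPM in DMSO, 24.4 and 27.2 in AsiDNA, 9.24 and 10.5 with belinostat alone and 17.7 and 19.4 in the combination. For these receptors belinostat alone was the lowest group. The log2 fold changes with belinostat were -1.43 ± 0.24 for FZD7 (SE; adjusted p = 0.000223, edgeR) and -1.21 ± 0.20 for FZD1 (SE; adjusted p = 0.000207, edgeR). In AsiDNA cells FZD7 fell by 0.72 ± 0.23 (SE; adjusted p = 0.02, edgeR), a call lost when any 1 library of these groups was left out (adjusted p from 0.0589 without AsiDNA replicate 1 to 0.125 without AsiDNA replicate 2), and FZD1 had a value of -0.47 ± 0.19 (SE; adjusted p = 0.0629, edgeR). FZD6 measured 39.9 and 40.4 CPM in DMSO, 42.9 and 45.8 in AsiDNA, 29.7 and 26.2 with belinostat alone and 32.3 and 36.7 in the combination. It fell by 0.52 ± 0.14 (SE; adjusted p = 0.00653, edgeR) with belinostat, and in AsiDNA cells the value was -0.36 ± 0.14 (SE; adjusted p = 0.0539, edgeR).

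LRP6 (chromosome 12, 12116025 to 12267012, minus strand), the co-receptor that carries the canonical signal, measured 70.8 and 73.1 CPM in DMSO, 67.9 and 72.3 in AsiDNA, 120 and 103 with belinostat alone and 105 and 99.8 in the combination. Every library with belinostat lay above every library without it. The log2 fold changes were 0.64 ± 0.12 (SE; adjusted p = 0.000674, edgeR) with belinostat and 0.54 ± 0.13 (SE; adjusted p = 0.0033, edgeR) in AsiDNA cells, where the call was lost without AsiDNA replicate 1 (adjusted p = 0.0621).

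FZD3, a receptor needed for axon guidance, measured 7.26 and 4.86 CPM in DMSO, 7.47 and 5.81 in AsiDNA, 8.89 and 10.5 with belinostat alone and 15.2 and 15.9 in the combination. The combination was the highest group and belinostat the next. FZD3 rose by 0.67 ± 0.25 (SE; adjusted p = 0.0353, edgeR) with belinostat and by 1.21 ± 0.25 (SE; adjusted p = 0.0014, edgeR) in AsiDNA cells. FZD4, the receptor for norrin in the retina, measured 2.72 and 1.56 CPM in DMSO, 2.53 and 3.34 in AsiDNA, 5.38 and 4.05 with belinostat alone and 3.0 and 4.22 in the combination, and rose by 1.155 ± 0.38 (SE; adjusted p = 0.0197, edgeR) with belinostat. Its exons share 18.9% of their bases with PRSS23 on the opposite strand. DESeq2 called neither gene with belinostat. FZD3 lost its call when any 1 library other than DMSO replicate 1 was left out, with adjusted p-values from 0.0505 without AsiDNA replicate 2 to 0.234 without belinostat replicate 2. FZD4 lost its call without DMSO replicate 2 (adjusted p = 0.0767), belinostat replicate 1 (0.211) or belinostat replicate 2 (0.0501). FZD2 and FZD5 were called in no comparison. FZD2 ranged from 1.56 to 4.5 CPM and FZD5 from 7.48 to 10.7 CPM over the 8 libraries.

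Of the secreted inhibitors, SFRP2 measured 34.9 and 22.2 CPM in DMSO, 27.4 and 22.1 in AsiDNA, 11 and 11.8 with belinostat alone and 18.7 and 22.1 in the combination. Belinostat alone was the lowest group and the other 3 overlapped or touched. SFRP2 fell by 1.32 ± 0.23 (SE; adjusted p = 0.000228, edgeR) with belinostat, and in AsiDNA cells the log2 fold change was -0.28 ± 0.22 (SE; adjusted p = 0.33, edgeR). DKK1 measured 2.52 and 2.43 CPM in DMSO, 1.81 and 3.49 in AsiDNA, 4.21 and 5.06 with belinostat alone and 6.16 and 3.83 in the combination. The libraries with belinostat lay above those without, at log2 fold changes of 0.89 ± 0.39 (SE; adjusted p = 0.0615, edgeR) and 0.92 ± 0.40 (SE; adjusted p = 0.0776, edgeR), which did not pass. DKK3 ranged from 1.33 to 3.51 CPM and was called in no comparison.

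The ligase ZNRF3 measured 22.6 and 19.7 CPM in DMSO, 22.4 and 23.8 in AsiDNA, 9.94 and 10.5 with belinostat alone and 14.5 and 12.8 in the combination. The libraries with belinostat all lay below those without. ZNRF3 fell by 1.05 ± 0.18 (SE; adjusted p = 0.000222, edgeR) with belinostat and the log2 fold change was -0.77 ± 0.18 (SE; adjusted p = 0.0031, edgeR) in AsiDNA cells.

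The 2 AXIN scaffolds of the destruction complex went opposite ways. AXIN1 (chromosome 16, 287440 to 352673, minus strand), the constitutive scaffold, measured 22.8 and 23.1 CPM in DMSO, 21.9 and 20.9 in AsiDNA, 12 and 13.7 with belinostat alone and 14.2 and 12.3 in the combination. AXIN2 (chromosome 17, 65528563 to 65561647, minus strand), the inducible scaffold, measured 4.74 and 4.47 CPM in DMSO, 4.58 and 4.79 in AsiDNA, 13.2 and 13.8 with belinostat alone and 7.16 and 9.20 in the combination. For each gene the libraries with and without belinostat did not overlap. AXIN1 fell by 0.84 ± 0.17 (SE; adjusted p = 0.000902, edgeR) and AXIN2 rose by 1.55 ± 0.23 (SE; adjusted p = 8.27e-05, edgeR) with belinostat. In AsiDNA cells the values were -0.70 ± 0.17 for AXIN1 (SE; adjusted p = 0.00517, edgeR) and 0.81 ± 0.25 for AXIN2 (SE; adjusted p = 0.018, edgeR). The AXIN1 call in AsiDNA cells was lost without combination replicate 2 (adjusted p = 0.06), and that of AXIN2 without AsiDNA replicate 1 (0.111), AsiDNA replicate 2 (0.0782) or combination replicate 2 (0.203). AXIN2 shares 25.2% of its exon bases with AC004805.1 on the same strand, so its counts may be split.

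Of the effectors, LEF1 (chromosome 4, 108047545 to 108168956, minus strand) measured 14.2 and 13.2 CPM in DMSO, 15.4 and 12.9 in AsiDNA, 2.46 and 4.39 with belinostat alone and 4.5 and 4.22 in the combination. The groups with and without belinostat did not overlap. The log2 fold changes were -2.05 ± 0.27 (SE; adjusted p = 3.08e-05, edgeR) with belinostat and -1.71 ± 0.27 (SE; adjusted p = 0.000184, edgeR) in AsiDNA cells. LEF1 and AXIN2, textbook β-catenin targets, thus moved in opposite directions, and ZNRF3, another such target, moved with LEF1. TCF7L2, the TCF partner of β-catenin best known from colon, measured 5.65 and 8.75 CPM in DMSO, 4.34 and 4.21 in AsiDNA, 13.6 and 11.5 with belinostat alone and 6.0 and 2.94 in the combination. It was highest in belinostat and next in DMSO replicate 2, the 3 libraries with the highest sense-intronic share. It rose by 0.80 ± 0.30 (SE; adjusted p = 0.032, edgeR) with belinostat. With the sense-intronic share as a covariate the value was 0.32 (adjusted p = 0.372), and the call was also lost in DESeq2 (0.0857) and without DMSO replicate 1 (0.0784), AsiDNA replicate 2 (0.05), belinostat replicate 1 (0.275) or belinostat replicate 2 (0.106).

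CTNNB1 measured 436 and 329 CPM in DMSO, 483 and 462 in AsiDNA, 345 and 335 with belinostat alone and 531 and 599 in the combination. The belinostat libraries lay within the DMSO range, and the combination lay above every other library. The log2 fold changes were -0.17 ± 0.14 (SE; adjusted p = 0.325, edgeR) with belinostat and 0.26 ± 0.14 (SE; adjusted p = 0.16, edgeR) in AsiDNA cells. TCF7 ranged from 22.6 to 30 CPM over the 8 libraries and was called in no comparison.

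AsiDNA against DMSO asks what the long AsiDNA treatment alone did. By edgeR's test 0 of 24 tested members were called, beside 0.0204% of all tested genes (3 genes, each lower). DESeq2 also called 0 members, beside 0.224% of all tested genes. In edgeR's test 3 members had an unadjusted p under 0.05, beside 11.4% of all tested genes. These were WNT2B with a log2 fold change of -1.22 ± 0.42 (SE; adjusted p = 0.366, edgeR), TCF7L2 with -0.75 ± 0.33 (SE; adjusted p = 0.42, edgeR) and CTNNB1 with 0.31 ± 0.14 (SE; adjusted p = 0.436, edgeR). The DMSO replicates differed from each other more than those of any other group, with a chi-square per degree of freedom of 26.34 between their counts, beside 1.87 between the AsiDNA replicates, 3.94 for belinostat and 4.14 for the combination. Without DMSO replicate 1, 6 of 25 tested members were called in this comparison, beside 31.6% of all genes tested in that fit: CTNNB1 (0.54), WNT5A (0.43), FZD1 (0.46) and FZD2 (1.36) higher and TCF7L2 (-1.01) and WNT2B (-1.59) lower. Without DMSO replicate 2, 0 members and 0.401% of all genes tested were called.

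The combination against belinostat asks whether AsiDNA cells differed under the inhibitor. WNT5A, WNT5B, FZD1, FZD3, FZD7, SFRP2 and CTNNB1 were higher in the combination, and WNT2B, WNT10B, TCF7L2 and AXIN2 were lower. In all, 11 of 24 tested members changed, 7 higher and 4 lower, beside 43.4% of all tested genes (22% higher and 21.4% lower), with a median log2 fold change of 0.34 beside -0.01. The values for CTNNB1 were 0.73 ± 0.14 (SE; adjusted p = 0.00162, edgeR), for WNT5A 0.78 ± 0.16 (SE; adjusted p = 0.00204, edgeR) and for FZD1 0.92 ± 0.21 (SE; adjusted p = 0.00387, edgeR). WNT2B differed by -1.93 ± 0.37 (SE; adjusted p = 0.0015, edgeR), TCF7L2 by -1.53 ± 0.33 (SE; adjusted p = 0.00272, edgeR) and WNT10B by -1.23 ± 0.35 (SE; adjusted p = 0.0136, edgeR). The remaining called members were WNT5B (1.72), FZD7 (0.89), SFRP2 (0.84), FZD3 (0.69) and AXIN2 (-0.72), with adjusted p-values from edgeR between 0.011 and 0.0431.

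The sense-intronic share differed between these groups in every library, 0.128% and 0.142% in belinostat against 0.0561% and 0.044% in the combination. With that share as a covariate, 0 of the 11 members were called, and 85 of all tested genes in place of 6398. The value was then 0.13 for WNT5A, 0.15 for CTNNB1, -0.69 for WNT2B and -0.52 for TCF7L2, and that for SFRP2 was -0.04 in place of 0.84. Since the share and the groups run together here, AsiDNA and this library property cannot be told apart. DESeq2 called 7 members, beside 35.2% of all tested genes. Fits without a belinostat or combination library leave 1 library in that group, and they called fewer members and fewer of all tested genes. CTNNB1, WNT5A, FZD1 and WNT2B kept their calls in each of those fits and in DESeq2. AXIN2 and FZD3 lost theirs without any 1 of the 4 libraries compared, FZD7 and SFRP2 without belinostat replicate 1 or combination replicate 2, TCF7L2 without combination replicate 2, and WNT10B without either belinostat replicate or combination replicate 2. WNT5B lost its call without either AsiDNA replicate, belinostat replicate 2 or combination replicate 1. The adjusted p-values of these losses ran from 0.0551 for WNT5B without AsiDNA replicate 2 to 0.218 for AXIN2 without combination replicate 1.

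**Figure D4:**
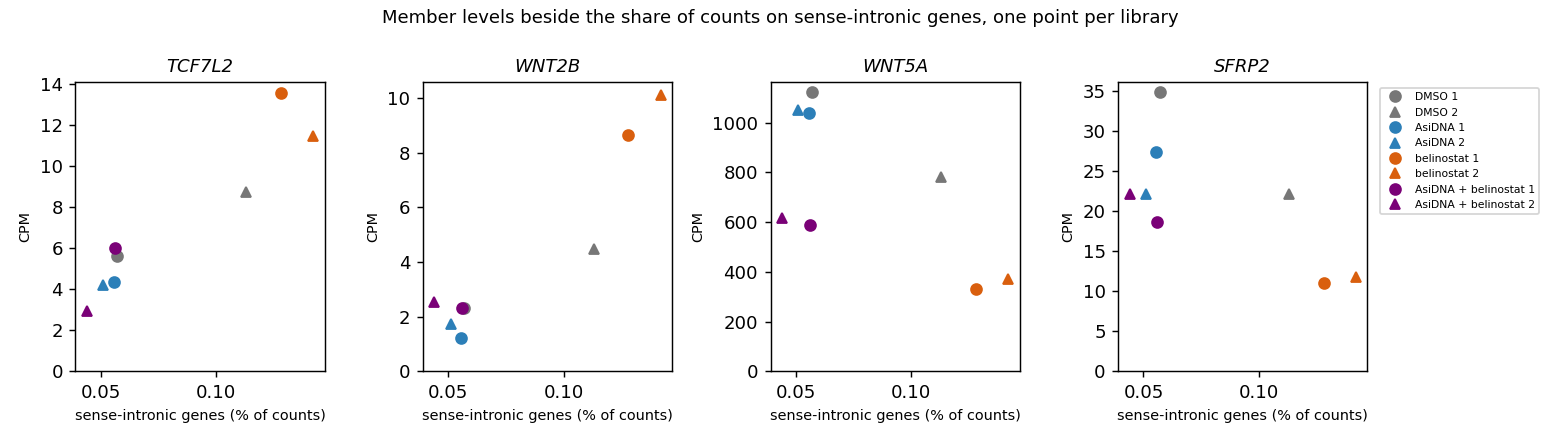
CPM of TCF7L2, WNT2B, WNT5A and SFRP2 against the share of counts on sense-intronic genes in percent, 1 point per library, coloured by group with circles for replicate 1 and triangles for replicate 2. The 2 belinostat libraries and DMSO replicate 2 lie at shares of 0.113% to 0.142%, and the other 5 libraries at 0.044% to 0.057%.

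The combination against DMSO compares both agents with neither. Here 13 of 24 tested members changed, 6 higher and 7 lower, beside 48.1% of all tested genes (24.3% higher and 23.7% lower), with a median log2 fold change of -0.38 beside -0.01. Scaling by library sizes alone moved the median of all tested genes to -0.20. It gave 17 called members, 5 higher and 12 lower, beside 49.7% of all tested genes. With the sense-intronic covariate there were 15, beside 48.2% of all tested genes, the call of AXIN2 was lost (adjusted p = 0.0665) and the value of CTNNB1 was 0.29 in place of 0.56. WNT7B (-1.97), FZD8 (-2.04), WNT5B (-1.91), LEF1 (-1.66), AXIN1 (-0.80), WNT5A (-0.66) and ZNRF3 (-0.64) were lower. WNT10B (3.37), FZD3 (1.36), AXIN2 (0.84), CTNNB1 (0.56), LRP6 (0.51) and DKK1 (0.99; adjusted p = 0.047, edgeR) were higher. The DKK1 call was lost with the replicate number as a block (adjusted p = 0.054), in DESeq2 (0.11) and without DMSO replicate 2 (0.0526), belinostat replicate 1 (0.081), belinostat replicate 2 (0.0827) or combination replicate 1 (0.358). Without combination replicate 2 the calls of AXIN2 (adjusted p = 0.176), CTNNB1 (0.0798), ZNRF3 (0.069) and DKK1 (0.0539) were lost, and without combination replicate 1 that of LRP6 (0.0517).

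The interaction asks whether belinostat acted differently in cells with and without AsiDNA. By edgeR's test 0 of 24 tested members were called, beside 0.00678% of all tested genes (1 gene), and 4 members had an unadjusted p under 0.05, beside 21.7% of all tested genes. All 4 had a less negative log2 fold change with belinostat in AsiDNA cells. These were SFRP2 at 1.05 ± 0.31 (SE; adjusted p = 0.101, edgeR), WNT5B at 2.21 ± 0.74 (SE; adjusted p = 0.123, edgeR), WNT5A at 0.65 ± 0.22 (SE; adjusted p = 0.129, edgeR) and FZD1 at 0.74 ± 0.28 (SE; adjusted p = 0.157, edgeR) on the log2 scale. DESeq2 called 1 member, WNT5A, beside 4.17% of all tested genes. Without DMSO replicate 2, 10 of 25 tested members were called, among them WNT5A (0.90) and SFRP2 (1.36), beside 34.6% of all genes tested in that fit. Without DMSO replicate 1, 1 member was called, WNT5A (0.37; adjusted p = 0.0453), beside 6.51% of all genes tested.

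Beyond the members, 71 other genes of WNT secretion, reception, signalling and planar polarity were listed, of which 47 were tested. With belinostat against DMSO 27 changed, 18 higher and 9 lower, which is 57.4% of these genes and the same share as over all tested genes (57.4%). With the combination against AsiDNA 23 changed, 18 higher and 5 lower, or 48.9% beside 42.9%. The combination against belinostat changed 13 (6 higher and 7 lower), or 27.7% beside 43.4%, and 0 of these were called with the sense-intronic covariate. The combination against DMSO changed 22 (17 higher and 5 lower), or 46.8% beside 48.1%. AsiDNA against DMSO gave 0 (4 at an unadjusted p under 0.05, edgeR, beside 11.4% of all tested genes), and so did the interaction (5 at an unadjusted p under 0.05, edgeR, beside 21.7%).

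The secretion genes PORCN and WLS moved apart. PORCN, the enzyme that attaches the lipid to WNT proteins, measured 62.9 and 71.8 CPM in DMSO, 63.9 and 63.3 in AsiDNA, 236 and 187 with belinostat alone and 185 and 163 in the combination. WLS, the carrier that takes lipid-bearing WNTs to the cell surface, measured 108 and 81.8 CPM in DMSO, 118 and 125 in AsiDNA, 53.9 and 54.0 with belinostat alone and 92.3 and 94.8 in the combination. PORCN was higher in all 4 libraries with belinostat, and WLS was lowest in belinostat alone. PORCN rose by 1.65 ± 0.14 (SE; adjusted p = 6.97e-07, edgeR) with belinostat and by 1.45 ± 0.14 (SE; adjusted p = 4.17e-06, edgeR) in AsiDNA cells. WLS fell by 0.81 ± 0.14 (SE; adjusted p = 0.000282, edgeR) with belinostat and by 0.38 ± 0.14 (SE; adjusted p = 0.0407, edgeR) in AsiDNA cells, and was 0.79 ± 0.14 (SE; adjusted p = 0.00108, edgeR) higher in the combination than in belinostat.

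DAAM1, a formin that links WNT and Dishevelled to actin, measured 23.3 and 26.5 CPM in DMSO, 23.6 and 20.2 in AsiDNA, 115 and 108 with belinostat alone and 76.6 and 68.8 in the combination, a rise of 2.16 ± 0.14 (SE; adjusted p = 8.68e-08, edgeR) with belinostat. DACT3, a Dishevelled antagonist, measured 0.403 and 0 CPM in DMSO, 0.362 and 0.145 in AsiDNA, 21.1 and 18.2 with belinostat alone and 16.2 and 16.4 in the combination. The libraries without belinostat held 4, 0, 3 and 1 DACT3 reads, so the gene passed the filter only through those with belinostat and had to differ; its fitted log2 fold change was 6.53 ± 0.46 (SE) with belinostat against DMSO. The planar polarity genes split. VANGL1 (-1.70 ± 0.17, SE; adjusted p = 3.15e-06, edgeR) and CELSR1 (-1.52 ± 0.18, SE; adjusted p = 9.75e-06, edgeR) were lower with belinostat, and CELSR2 (1.38; adjusted p = 5.86e-05, edgeR), PRICKLE2 (1.00; adjusted p = 2.1e-05, edgeR) and PRICKLE3 (0.87; adjusted p = 0.00506, edgeR) were higher. PYGO1, a nuclear partner of β-catenin, was lower with belinostat against DMSO (-2.225, adjusted p = 3.36e-06, edgeR). It was also lower in the combination against AsiDNA (-1.19, adjusted p = 0.000396, edgeR) and against DMSO (-0.91, adjusted p = 0.0024, edgeR). In the combination against belinostat, PYGO1 was higher by 1.32 ± 0.25 (SE; adjusted p = 0.0013, edgeR), and CELSR3 (-0.92; adjusted p = 0.00241, edgeR) and DAAM1 (-0.62; adjusted p = 0.00283, edgeR) were lower. None of these 3, nor WLS, was called in that comparison with the sense-intronic covariate.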

How the data were processed

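The authors deposited raw read counts, 1 value for each gene and library, with no normalization recorded; reads were processed with cutadapt 1.16, STAR 2.7.0 and featureCounts 1.6.3 (Subread) on GRCh38, per the submitters' processing notes. Libraries were made with a stranded total RNA kit after ribosomal RNA depletion, per the labels' protocols. Which annotation release featureCounts used, and with which strand setting, is not given in the sources used here, so overlapping and antisense genes are uncertain. The 8 libraries held 6057394 to 9699637 counts. Gene classes, coordinates and exon lengths came from GENCODE 29 on GRCh38, which holds 58611 of the 58884 identifiers. Symbols came from a separate list of gene names, and from GENCODE 29 where that list had none. In all, 42371 identifiers had a symbol other than the identifier itself. Promoter sequences came from RefSeq on GRCh38.p14.

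Counts were analysed in R 4.3.3. filterByExpr of edgeR 4.0.16 kept 14741 genes, libraries were scaled with TMM factors, and a single fit over the 8 libraries gave each group its own coefficient and left 4 residual degrees of freedom. For the 5 group comparisons and the interaction, edgeR's quasi-likelihood test was used with Benjamini-Hochberg adjustment over all tested genes, called at an adjusted p under 0.05. CPM values use TMM-scaled library sizes, and standard errors are the absolute log2 fold change divided by the square root of F. Exact intervals of count ratios have a confidence level of 95%. The scripts were tested on simulated data with known fold changes.

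The members and lists were chosen with earlier results of these data known. Every member is accounted for, and of the other pathway genes up to 4 called ones with the smallest adjusted p in each comparison are named. CELSR2, PRICKLE2 and PRICKLE3 are also given outside that rule, chosen after their values were seen. Some genes named by the rule are also described in comparisons other than the one that brought them in. The alternatives were other size factors (RLE, library size only), DESeq2 1.42.0, other filters on low counts, fits of the compared groups alone, a replicate block, leaving out each library, protein-coding genes only, leaving out the 10 most abundant genes, and the share of counts on sense-intronic genes as a covariate.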

Additional observations from a re-analysis of the deposited data

How the results depend on the processing

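The number of members called was 18 with belinostat against DMSO, 0 with AsiDNA against DMSO, 12 with the combination against AsiDNA, 11 against belinostat and 13 against DMSO, and 0 for the interaction. Leaving out each library in turn gave 15 to 18, 0 to 6, 8 to 17, 5 to 15, 10 to 17 and 0 to 10 in the same order. For the combination against belinostat, DESeq2 called 7 and the covariate for the sense-intronic share left 0, beside 35.2% and 0.577% of all tested genes. With that covariate the value of SFRP2 was -0.036. For the interaction, DESeq2 called 1 (WNT5A), beside 4.17% of all tested genes. The fit without a filter on low counts called 3 (WNT5A, WNT5B and SFRP2), beside 5.02% of all genes tested. The cause of these shifts was not tested. With the replicate number as a block, 18, 0, 12, 11, 12 and 0 members were called, and DKK1 in the combination against DMSO was the 1 call lost. The shares over all tested genes were then 56.8%, 0.0339%, 42.2%, 43.1%, 47.3% and 0.129%. The labels state no pairing of same-numbered libraries. Over 8142 genes, deviations of these libraries correlated between -0.37 and 0.234. With 2 libraries per group, such values cannot decide whether the libraries were paired. Of the 54 called member values over all comparisons, RLE factors kept 54, library size alone 51, DESeq2 44, no filter 51, at least 1 CPM in 2 libraries 51, protein-coding genes alone 52, leaving out the 10 most abundant genes 51 and the sense-intronic covariate 41. Library size alone moved the median log2 fold change of all tested genes to -0.20 in the combination against DMSO and to -0.12 against AsiDNA. Over all tested genes the interaction called 1 gene, and 614 with DESeq2. Of the other pathway genes, the combination against belinostat called 0 with the sense-intronic covariate, beside 0.577% of all tested genes. Without a filter the interaction called 2 of them, beside 5.02% of all genes tested. Leaving out single libraries also shifted the numbers of other pathway genes called, as it did those of all tested genes. Of the 19 ligands, 14 did not pass the filter on low counts. For 4 of them (WNT1, WNT2, WNT8A and WNT10A) no count was found at this depth, at which 3 counts in a library equal 0.292 to 0.506 CPM. A level too low to give a count cannot be told from absence.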

Other observations

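Few reads were found for the 3 non-coding genes whose symbols match the rule. WNT5A-AS1, which lies antisense to the most expressed ligand, had 15 counts over the 8 libraries: 1 and 6 in DMSO, 2 and 2 in AsiDNA, 1 and 0 in belinostat, and 2 and 1 in the combination. FZD4-DT had 5 counts in all and FZD10-AS1 had 0. None of the 3 passed the filter on low counts, and no comparison was made of them.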
